A study of Mus musculus with 6 samples.

Results

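The HoxB cluster is a run of 10 homeobox genes on mouse chromosome 11, and its genes were taken by symbol from count tables of 31053 genes in 6 single-cell libraries. All 10 genes, Hoxb1 to Hoxb9 and Hoxb13, were found in every table. Hox genes encode transcription factors that give cells their position along the head-to-tail axis. Genes at the 3′ end of a cluster, such as Hoxb1, are known to be switched on first and furthest towards the head, and genes at the 5′ end, such as Hoxb9 and Hoxb13, later and nearer the tail. Hox genes pattern the hindbrain, the spinal cord and the somites, the blocks of mesoderm that form vertebrae and muscle. Caudal (Cdx) factors and retinoic acid are known activators of Hox genes, and Polycomb proteins keep the clusters silent in embryonic stem cells.

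The study followed mouse embryonic stem cells (ESC) of 2 genotypes through differentiation towards mesoderm. The labels name the genotypes Oct1_cKO, written cKO here, and parental. The gene for Oct1, a POU-domain transcription factor, is Pou2f1. Cells were profiled as ESC, at day 3 and at day 6, with 1 library for each genotype and stage, so no difference between groups has a replicate check and no test was made. For differentiation, cells described as depleted were plated on gelatin (0.1%) and held for 2 days in N2B27 medium containing Bmp4. They then spent 4 days in a medium based on DMEM, with Rspo3, a Wnt enhancer, and LDN-193189, a BMP receptor inhibitor. Whether the lines were clones, and how the allele was deleted, is not given in the sources used here. The labels of the ESC libraries carry another run prefix than those of day 3 and day 6, so stage and prefix cannot be told apart for steps that start at ESC.

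Kept cells were barcodes with 1000 genes or more whose UMIs (unique molecular identifiers, each a counted transcript) were mitochondrial in no more than 10%. They numbered 530 cKO and 1396 parental ESC, 1026 cKO and 948 parental cells at day 3, and 1650 cKO and 1546 parental cells at day 6. Median UMIs per cell were 70990.5 in cKO and 51732.5 in parental ESC, 79002.5 and 82544 at day 3, and 30925 and 36219 at day 6. Between 0 and 2 kept barcodes were shared by any pair of libraries. Levels are UMIs summed over a library's kept cells and scaled to a total of 1000000 UMIs (CPM), with exact 95% Poisson intervals that cover counting error only. A 5′ tag counts a transcript once whatever its length, so levels of different genes were set side by side without a length scale. Pou2f1 had 21.5 CPM in cKO and 30.1 CPM in parental ESC, 12.6 and 28.3 CPM at day 3, and 16.0 and 30.9 CPM at day 6. The cKO libraries thus held fewer Pou2f1 tags at each stage but were not without them; where the tags lie relative to the deleted part is not known. The pluripotency gene Pou5f1 had 789.6 CPM in cKO and 682 CPM in parental ESC, and 8.57 and 27.8 CPM at day 6. The somite gene Meox1 had 2 UMIs in cKO and 9 UMIs in parental ESC, and reached 40.2 and 67.5 CPM by day 6.

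A second property separated the genotypes. Each cell was scored by the share of its UMIs from chromosomes 1, 6 and 8 against the share from chromosome 11, Hox genes left out, on a log2 scale set to the median cKO cell of its stage. In the cKO libraries 92.8%, 94.2% and 87.7% of cells lay within 0.25 of that median at ESC, day 3 and day 6. In the parental libraries only 29.4%, 13.5% and 17.7% did. Of parental cells at day 6, 30.6% were high for chromosomes 1, 6 and 8 and 51.7% were high for chromosome 11, the chromosome of the HoxB cluster. Results are therefore also given for cells of neither kind, in which Pou2f1, a chromosome 1 gene, had 21.5 CPM in cKO and 27.7 CPM in parental ESC, 12.6 and 26.4 CPM at day 3, and 15.9 and 37.2 CPM at day 6. Over chromosome 11 genes with at least 5 CPM, members left out, the median log2 ratio of cKO over parental was -0.27 in ESC, -0.21 at day 3 and -0.32 at day 6.

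On the mm10 assembly the 10 genes span chromosome 11 from position 96194316 to 96368256, all on the plus strand, with Hoxb13 at the low coordinate and Hoxb1 at the high one. Hoxb13 lies 74.0 kb from Hoxb9, while Hoxb1 to Hoxb9 together cover 96.8 kb. Hoxb2 and Hoxb3 overlap the antisense transcript Hoxb3os, and Hoxb5 and Hoxb6 overlap Hoxb5os. The strand rule of the counting is not given in the sources used here, so reads of these overlapping genes may be exchanged. Promoter windows were at hand for 3 of the 10 genes, from RefSeq on GRCm38.p6, and they are shown because they sample the early, middle and late parts of the cluster. Each runs from 250 bases before the transcription start to 50 bases after it, on the plus strand, at chr11:96365508-96365807 for Hoxb1, chr11:96318017-96318316 for Hoxb4 and chr11:96281655-96281954 for Hoxb8. Capitals mark matches to any of the searched motifs, on either strand.
Hoxb1: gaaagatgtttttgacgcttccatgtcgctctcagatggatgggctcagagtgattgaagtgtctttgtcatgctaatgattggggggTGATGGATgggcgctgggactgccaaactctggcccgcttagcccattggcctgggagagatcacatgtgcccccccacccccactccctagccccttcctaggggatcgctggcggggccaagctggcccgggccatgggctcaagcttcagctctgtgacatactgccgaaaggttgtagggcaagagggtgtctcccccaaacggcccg
Hoxb4: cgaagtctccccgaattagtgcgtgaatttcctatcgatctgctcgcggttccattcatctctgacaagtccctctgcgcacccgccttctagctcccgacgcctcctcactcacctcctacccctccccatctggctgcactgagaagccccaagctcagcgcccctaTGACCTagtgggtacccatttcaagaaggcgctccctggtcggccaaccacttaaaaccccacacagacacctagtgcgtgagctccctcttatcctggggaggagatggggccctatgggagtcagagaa
Hoxb8: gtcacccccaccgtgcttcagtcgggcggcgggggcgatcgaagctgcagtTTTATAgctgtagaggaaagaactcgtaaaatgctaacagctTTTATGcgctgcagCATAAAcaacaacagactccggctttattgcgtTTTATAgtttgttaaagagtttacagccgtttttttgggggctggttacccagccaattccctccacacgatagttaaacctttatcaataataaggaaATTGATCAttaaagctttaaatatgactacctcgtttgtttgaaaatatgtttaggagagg
The motifs searched on both strands were ATGCAAAT, the octamer that Oct1 binds, TTTATG for caudal factors, AGGTCA, a half-site of retinoic acid receptors, TGATNNAT for Pbx and Hox proteins, and TATAAA, the TATA box. Over all 32851 windows of this length they occurred in 1.74%, 11.9%, 16.3%, 8.85% and 13.6%, in that order. The Hoxb8 window held the caudal motif 2 times, on opposite strands, starting at -157 and -143 from the transcription start, besides 2 TATA box matches on the minus strand and 1 Pbx and Hox motif. The Hoxb4 window held 1 retinoic acid receptor half-site and the Hoxb1 window 1 Pbx and Hox motif. The octamer letters were in none of the 3 windows. The Hoxb8 window was 42.3% G or C, against 58% for Hoxb4 and 59.3% for Hoxb1, with a median of 52.7% over all windows.

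In ESC the cluster was nearly silent and what was detected came from its 5′ end. Hoxb9 had 8.01 CPM in cKO and 7.57 CPM in parental ESC, and Hoxb13 had 2.95 and 2.04 CPM. These 2 genes held 83.9% of HoxB UMIs in cKO and 74.7% in parental ESC. The other 8 genes lay between 0 and 1.05 CPM in cKO and between 0.0385 and 1.25 CPM in parental ESC. Hoxb5 and Hoxb6 had no UMI in the cKO library, which allows up to 0.0770 CPM for each. Hoxb4 led the rest of the 3′ part at 1.05 and 0.912 CPM. The lincRNA Gm53, which lies between Hoxb13 and Hoxb9, had 7.76 CPM in cKO and 7.55 CPM in parental ESC, and no more than 2.01 CPM in any later library. Over the 10 genes, the Spearman correlation of level with position from the 3′ end was 0.56 in cKO and 0.48 in parental ESC, and 0.41 and 0.30 without Hoxb13.

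Summed over the cluster, ESC levels were 13.1 CPM in cKO and 12.9 CPM in parental cells, a log2 ratio of cKO over parental of 0.02 (95% interval -0.13 to 0.18). Genes were called higher or lower from a 2-fold ratio upwards, provided that either library reached 5 CPM. Only Hoxb9 reached that level in ESC, and its log2 ratio of 0.08 (-0.12 to 0.28) was under the fold limit, so 0 of 1 genes was higher and 0 lower. Over all 9224 genes of that level, 1.4% were higher and 2.66% lower in cKO. Among cells of neither chromosome group the summed ratio was -0.38.

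At day 3 the pattern turned to the 3′ end. Hoxb1, the first gene of the cluster, had 3.05 CPM in cKO and 11.02 CPM in parental cells. Hoxb2, its neighbour, had 4.39 and 9.90 CPM. Together with Hoxb3 and Hoxb4 they held 82.4% of HoxB UMIs in cKO and 84.3% in parental cells. No other gene exceeded 0.618 CPM in cKO or 1.45 CPM in parental cells, values that Hoxb7 set in both. Hoxb8 had 2 UMIs in the cKO library and 55 in the parental library, or 0.0238 and 0.707 CPM. Its counting interval for the log2 ratio ran from -7.98 to -2.97.

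Both genes that reached 5 CPM at day 3 were lower in cKO, by a log2 ratio of -1.85 (-2.06 to -1.65) for Hoxb1 and -1.17 (-1.36 to -0.99) for Hoxb2. Both reached 5 CPM in the parental library only, so the limit let them be called lower but not higher. Over all 8917 genes of that level, 0.594% were lower and 0.258% higher. The summed level was 9.41 CPM in cKO and 26.3 CPM in parental cells, a log2 ratio of -1.48 (-1.60 to -1.36). That difference was smaller among cells of neither chromosome group, where the summed level was 9.74 CPM in 967 cKO cells and 14.3 CPM in 128 parental cells, a log2 ratio of -0.56. In those cells Hoxb2 stood at 4.57 CPM in cKO and 4.48 CPM in parental cells, so its difference was not seen there, while Hoxb1 stood at 3.15 and 6.38 CPM. Parental cells high for chromosomes 1, 6 and 8 held 42.9 CPM.

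Clustering of the day 3 cells, with all Hox genes left out, placed 283 parental cells and 1 cKO cell in cluster 12, which was neuromesodermal-like by the markers Nkx1-2, Cdx2 and Cdx1. The other markers of that list, T, Fgf8, Wnt3a and Sp5, did not pass the marker limits in cluster 12, where Sox1 was a leading gene. Unnamed cluster 10, of 83 cells, passed 4 markers of the list, T, Nkx1-2, Cdx2 and Cdx1, but none was among its leading genes. The name of cluster 12 thus rests on part of the list. Neuromesodermal progenitors are the tail-end cells that feed both spinal cord and trunk mesoderm. Cluster 12 held 69.1% of the parental HoxB UMIs at 51.6 CPM (48.9 to 54.4), with Hoxb1 at 22.1 CPM and Hoxb2 at 21.4 CPM. Of its parental cells, 98.6% were high for chromosomes 1, 6 and 8, so cluster and chromosome group cannot be told apart here. The cKO HoxB UMIs lay mostly elsewhere, 45.6% in the unnamed cluster 2, led by Adgrb2 and Pou2f3, at 14.4 CPM, and 20.3% in the unnamed cluster 7, led by Foxb1 and T, at 14.2 CPM. In cluster 2 the 29 parental cells held 8.81 CPM.

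By day 6 the cluster was on from Hoxb1 to Hoxb9, and the cKO library, summed over all its cells, held less of every gene. Within single groups of like cells, given below, this did not hold for every gene. Hoxb2 was the highest in both genotypes, with 31.8 CPM in cKO and 84.6 CPM in parental cells. Hoxb4 came next at 17.5 and 59.5 CPM, and Hoxb3, between them on the chromosome, stood at 5.05 and 23.2 CPM. Hoxb1 had 12.0 CPM in cKO and 18.7 CPM in parental cells. The middle of the cluster was low throughout: Hoxb5 had 2.15 and 5.69 CPM, Hoxb6 3.49 and 7.03 CPM, and Hoxb7 4.83 and 12.7 CPM. At the 5′ end the genotypes stood furthest apart, with Hoxb8 at 3.09 and 19.96 CPM and Hoxb9 at 6.75 and 54.3 CPM. Hoxb13, a tail-end gene, was barely detected, at 0.234 and 0.505 CPM.

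**Figure D1:**
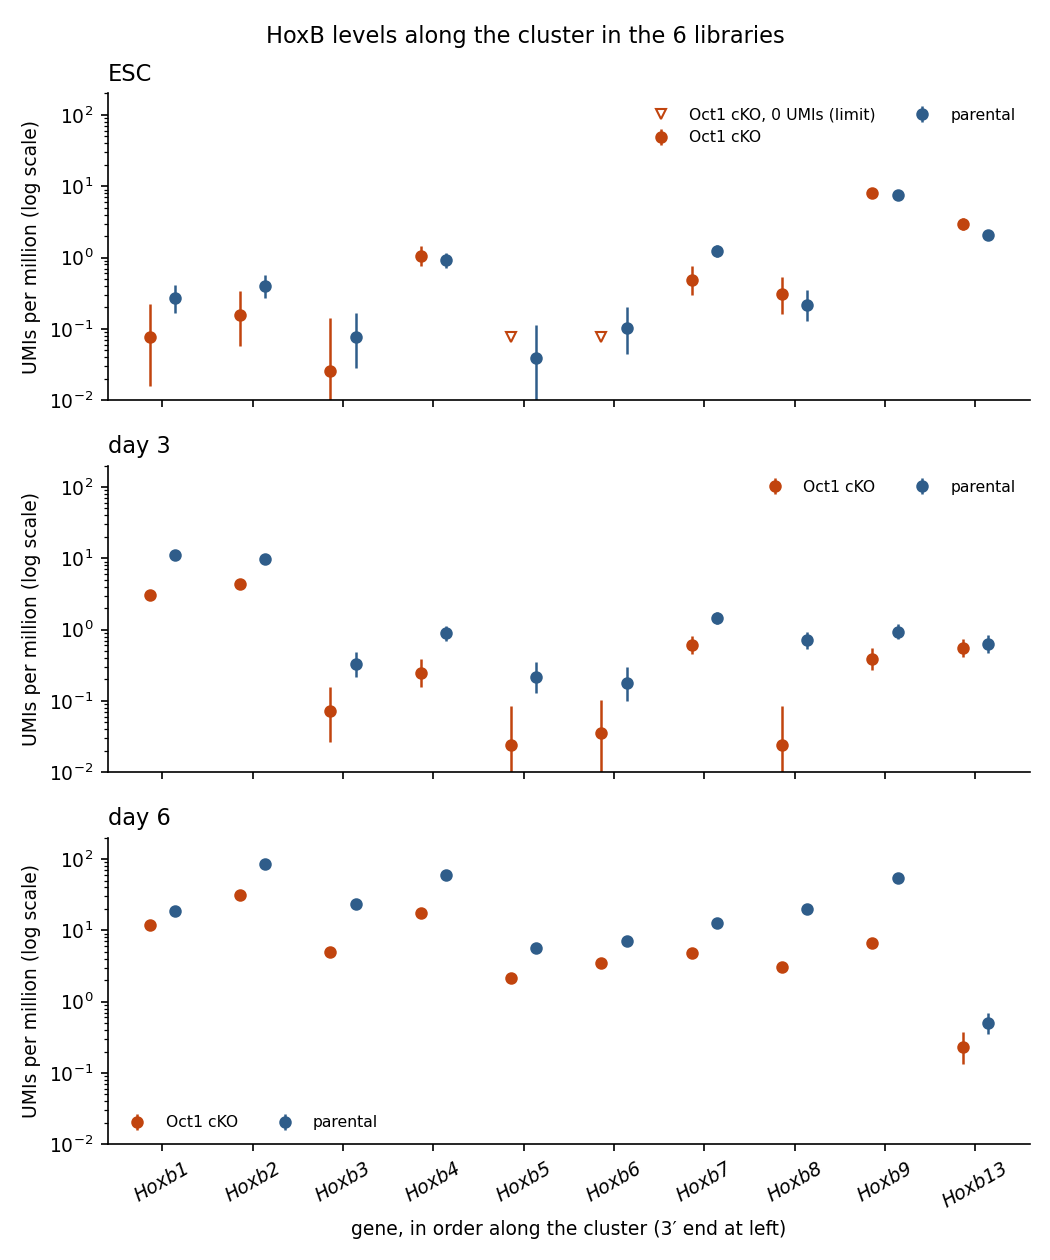
Level of each HoxB gene in the 6 libraries, in CPM on a log scale, with genes in chromosomal order from Hoxb1 and 95% Poisson intervals. Open triangles mark genes with 0 UMIs, drawn at a floor of 3 counts and not at the upper end of their interval. Hoxb9 and Hoxb13 lead in ESC, Hoxb1 and Hoxb2 at day 3, and at day 6 the parental point lies above the cKO point for each gene.

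Of the 9 genes at 5 CPM or more, 8 were at least 2-fold lower in cKO and 0 higher. Hoxb5, Hoxb6, Hoxb7 and Hoxb8 reached 5 CPM in the parental library only, so the limit let them be called lower but not higher. Over all 10065 genes of that level, 6.76% were lower and 5.63% higher. The log2 ratios were -1.41 for Hoxb2, -2.20 for Hoxb3, -1.77 for Hoxb4, -1.40 for Hoxb5, -1.01 for Hoxb6, -1.40 for Hoxb7, -2.69 for Hoxb8 and -3.01 for Hoxb9. Hoxb1 missed the fold limit at -0.65 (-0.77 to -0.52). Their median was -1.41, against -0.05 over all genes. Summed, the cluster stood at 86.8 CPM in cKO and 286.3 CPM in parental cells, a log2 ratio of -1.72 (-1.76 to -1.68). Hoxb1 to Hoxb4 together gave -1.49 (-1.54 to -1.44) and Hoxb5 to Hoxb9 -2.30 (-2.38 to -2.21), intervals that do not overlap. The order was not a steady gradient. Hoxb3 and Hoxb4 lay below Hoxb5, Hoxb6 and Hoxb7, and Hoxb2 lay below Hoxb6 and about level with Hoxb5 and Hoxb7. The lower value of Hoxb5 to Hoxb9 rests largely on Hoxb8 and Hoxb9, which held 5147 of the 6909 parental UMIs of that group. The Spearman correlation of ratio with position was -0.48 over 9 genes. Cells of neither chromosome group gave a summed ratio of -1.88, with 8 of 9 genes lower, where 6.21% of all genes were lower and 3.39% higher. In these cells Hoxb3, at 4.70 CPM in cKO, also reached 5 CPM on the parental side only, as did Hoxb5 to Hoxb8. The limit let these genes be called lower but not higher.

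The make-up of the HoxB signal differed accordingly. At day 6 Hoxb8 and Hoxb9 together held 11.3% of HoxB UMIs in cKO (10.5% to 12.2%) and 26.0% in parental cells (25.3% to 26.6%). Hoxb1 held 13.8% in cKO and 6.54% in parental cells. From the highest level down, the cKO order was Hoxb2, Hoxb4, Hoxb1, Hoxb9, Hoxb3, Hoxb7, Hoxb6, Hoxb8, Hoxb5 and Hoxb13. Intervals of neighbours overlapped there for Hoxb3 with Hoxb7 and for Hoxb6 with Hoxb8. The parental order was Hoxb2, Hoxb4, Hoxb9, Hoxb3, Hoxb8, Hoxb1, Hoxb7, Hoxb6, Hoxb5 and Hoxb13, and of its neighbours only Hoxb8 and Hoxb1 overlapped. Level and position had a Spearman correlation of -0.66 in cKO and -0.42 in parental cells. Without the distant and barely detected Hoxb13 it was -0.53 and -0.20.

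**Figure D2:**
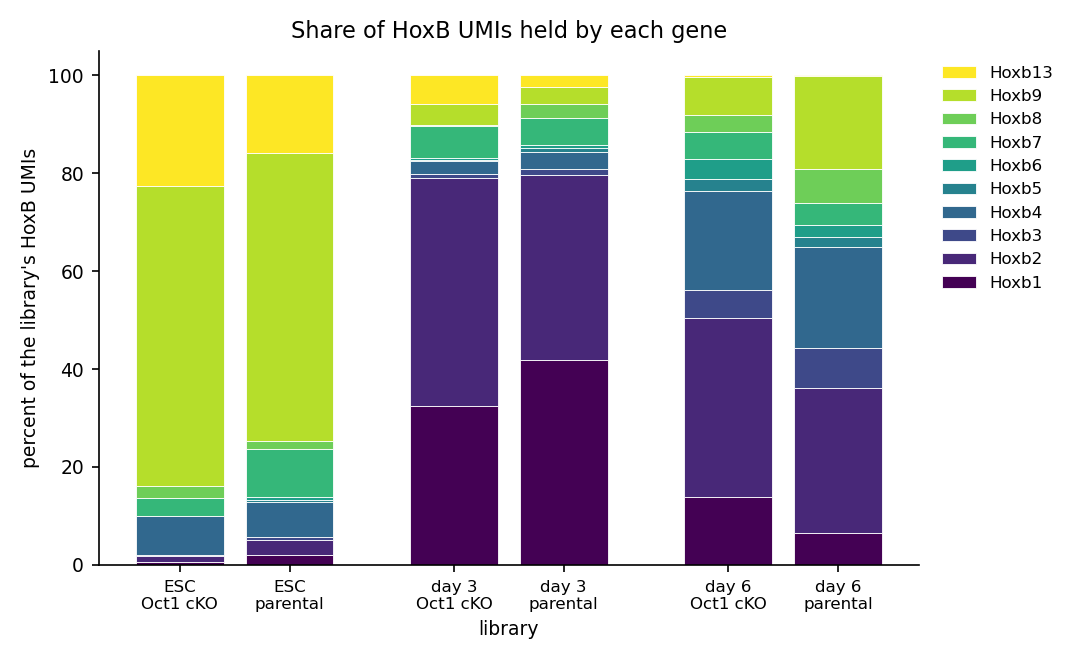
Percent of each library's HoxB UMIs held by each gene, stacked from Hoxb1 at the bottom to Hoxb13 at the top. Hoxb9 and Hoxb13 fill most of the ESC bars, Hoxb1 and Hoxb2 most of the day 3 bars, and at day 6 the Hoxb9 band is 7.77% in cKO and 19.0% in parental cells.

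Between day 3 and day 6 the summed level was 9.22-fold higher in cKO and 10.9-fold higher in parental cells, log2 ratios of 3.21 (3.098 to 3.31) and 3.45 (3.38 to 3.51), where the median over all genes was 0.26 and 0.22. In cKO 5 of 5 genes at 5 CPM were at least 2-fold higher at day 6, where 23% of all genes were higher and 7.72% lower. None of the 5 reached 5 CPM in the cKO day 3 library, so the limit let them be called higher but not lower. In parental cells 8 of 9 were higher, where 18.3% of all genes were higher and 5.41% lower. Hoxb1 was the exception, at 0.77 on the log2 scale. Only Hoxb1 and Hoxb2 reached 5 CPM in the parental day 3 library, so the same limit applied to the other genes counted. Hoxb3 and Hoxb4 moved by 6.15 and 6.13 in cKO and by 6.12 and 6.07 in parental cells. Hoxb9 moved down between ESC and day 3, by -4.35 in cKO and -3.01 in parental cells, and then up by 4.11 and 5.86 by day 6.

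At day 6 fewer cKO cells held HoxB tags. With each cell thinned to 10000 UMIs, 27.4% of cKO cells (24.8% to 30.1%) and 64.4% of parental cells (61.6% to 67.2%) had a UMI of any of the 10 genes at day 6. Shallower cells, 558 cKO and 371 parental, were left out. Without thinning the shares were 36.5% and 69.3%. At day 3 the thinned shares were 7.16% in cKO and 16.2% in parental cells, and in ESC 12.3% and 10.9%. At day 6, 6.04% of cKO cells and 23.3% of parental cells held UMIs of both Hoxb1 to Hoxb4 and Hoxb5 to Hoxb9 genes. Cells with 3 or more of the genes made up 7.78% of cKO and 27.1% of parental cells. For comparison, in the low-HoxB epithelium-like day 6 cluster described next, 24.8% of cKO and 31.7% of parental cells had a HoxB UMI without thinning, at median depths of 69527.5 and 70046 UMIs and summed levels of 11.9 and 19.8 CPM. Free RNA was not measured, so whether these UMIs came from the cells themselves is not known. Hoxb9 differed in amount per cell too, with 3.60 UMIs per positive cKO cell and 11.9 per positive parental cell, unthinned.

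Day 6 cells were clustered without the Hox genes, and the HoxB level was then read in each cluster. The highest levels were in parental cells of the neuron-like cluster 5 (Tubb3, Dcx, Elavl3), at 664.7 CPM in 144 cells, and of the neural-like cluster 8 (Sox1, Pax6, Hes5), at 423 CPM in 448 cells. Each of these clusters held only 7 cKO cells, at 38.8 CPM and 210.3 CPM. Somite-like clusters 6 and 3 and the axial-like cluster 7 (T, Shh, Chrd) lay lower, cluster 7 with 235 CPM in 69 cKO cells and 233 CPM in 19 parental cells. The mesenchyme-like cluster 4 stood at 155 CPM in cKO and 188 CPM in parental cells. Epithelium-like cells, marked by keratins and Cdh1, and pluripotent-like cells, at 11.9 CPM in cKO and 38.7 CPM in parental cells, were low. The epithelium-like cluster 1 held 18.5% of cKO and 7.96% of parental cells. Unnamed clusters 2, 9 and 11 were low too, at 12.6 CPM in cKO and 20.2 CPM in parental cells. Together they held 51.3% of cKO and 13.6% of parental cells, and cluster 2 passed 12 epithelium markers. The neuron-like and neural-like clusters held 0.169% and 1.25% of HoxB UMIs in cKO, and 19.8% and 49.1% in the parental library. Cluster 6 held 71.9% in cKO and 21.6% in parental cells.

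**Figure D3:**
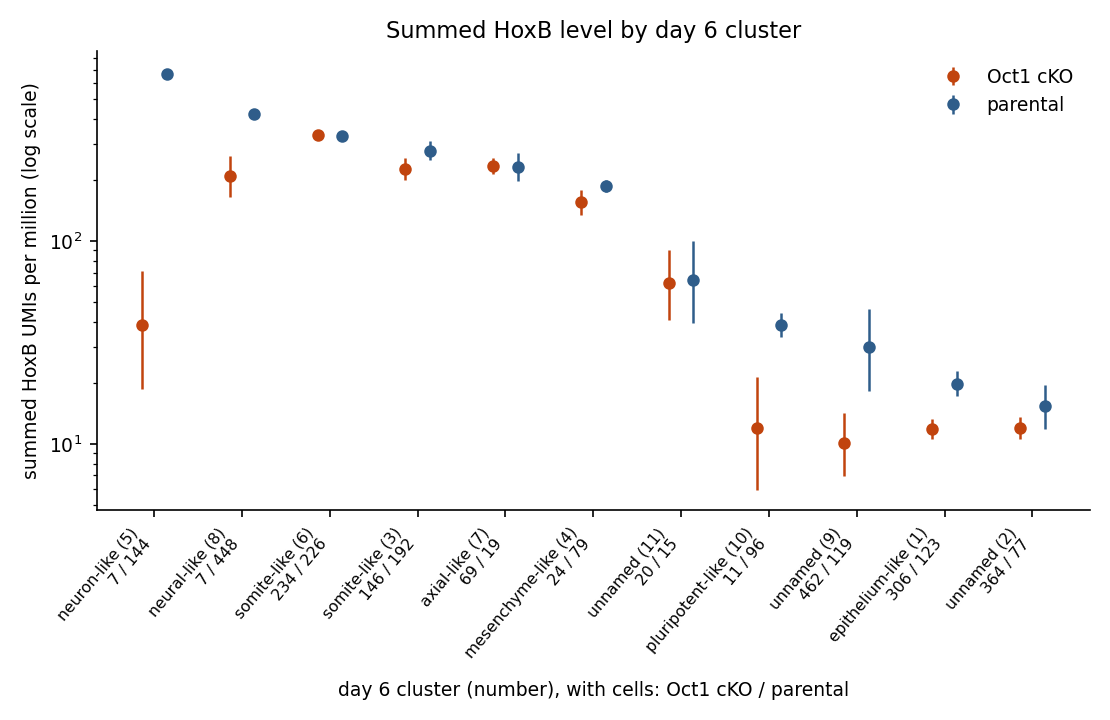
Summed HoxB level in each day 6 cluster with cells of both genotypes, in CPM on a log scale with 95% Poisson intervals; cluster number and cells per genotype stand under each pair. Levels of cKO and parental cells lie close together in somite-like cluster 6 and axial-like cluster 7, and the 2 neural clusters on the left hold only 7 cKO cells each.

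With the neural-like and neuron-like clusters left out, a step added after these values were seen, 4 of 8 genes at 5 CPM were at least 2-fold lower in cKO and 0 higher, where 2.92% of all genes were lower and 2.98% higher. The log2 ratios were then -1.10 for Hoxb3, -1.08 for Hoxb7, -1.67 for Hoxb8 and -1.53 for Hoxb9, and the summed ratio was -0.82. Hoxb6, Hoxb7 and Hoxb8 reached 5 CPM in the parental cells only, so the limit let them be called lower but not higher.

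In somite-like cluster 6, over all its cells, the summed levels differed by less than counting error, while single genes differed in both directions. The cluster, named by all 8 somite markers including Tcf15, Meox1 and Pax3, had 334.3 CPM in 234 cKO cells and 329.98 CPM in 226 parental cells, a log2 ratio of 0.02 (-0.04 to 0.08). At other cluster settings, clusters made mostly of the cells of clusters 3 and 6 gave small summed ratios beyond their intervals, from 0.069 (0.013 to 0.13) to 0.094 (0.037 to 0.15), and several of those clusters were named mesenchyme-like. Cluster 6 also passed 5 mesenchyme, 5 endoderm, 2 endothelium, 2 neural crest and 2 fibroblast markers. Whether it mixes cell types, and whether that bears on its ratios, was not tested. The neural marker Hes5 was in cluster 6 at 1.41 CPM in cKO and 5.24 CPM in parental cells, and Sox1 at 1.10 and 1.85 CPM. The outermost 3′ genes were higher in cKO, with Hoxb1 at 44.1 and 28.3 CPM, a log2 ratio of 0.64 (0.45 to 0.83), and Hoxb2 at 126.3 and 95.4 CPM, a log2 ratio of 0.40 (0.30 to 0.51). Hoxb6 was also higher, by 0.50 (0.19 to 0.81). Hoxb8 and Hoxb9 at the 5′ end were lower in cKO, with Hoxb8 at 11.6 and 20.7 CPM, a log2 ratio of -0.83 (-1.13 to -0.54), and Hoxb9 at 18.4 and 40.7 CPM, a log2 ratio of -1.14 (-1.37 to -0.92). Hoxb3 and Hoxb4 were lower too, by -0.29 (-0.52 to -0.06) and -0.20 (-0.34 to -0.07), and the intervals of Hoxb5 and Hoxb7 included 0. The Hoxb1 difference depended on the clustering: at a finer resolution the main somite-like cluster, of 206 cKO and 119 parental cells, held Hoxb1 at 47.2 CPM in cKO and 44.9 CPM in parental cells.

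Splitting cluster 6 by chromosome group changed part of this. The summed level was then higher in cKO in cells of neither group, at 319 and 265 CPM, a log2 ratio of 0.27 (0.13 to 0.41). It was also higher in cells high for chromosome 11, at 476 and 339 CPM, a log2 ratio of 0.49 (0.36 to 0.62). Cells of neither group, 206 cKO and 35 parental, kept Hoxb9 lower, at 12.4 and 36.3 CPM, a log2 ratio of -1.55 (-1.98 to -1.10), and Hoxb1 and Hoxb2 higher, at 0.42 (0.032 to 0.82) and 0.65 (0.40 to 0.91). Hoxb8 no longer differed beyond its interval there, at -0.11 (-0.80 to 0.65), with 119 and 20 UMIs. Among cells high for chromosome 11, 21 cKO and 183 parental, Hoxb9 went the other way, with 72.5 CPM in cKO and 40.1 CPM in parental cells, a log2 ratio of 0.85 (0.49 to 1.201). In those cells Hoxb2 was again higher, at 0.93 (0.71 to 1.15), while Hoxb1 stood at -0.12 (-0.75 to 0.45) and Hoxb8 at 0.0047 (-0.67 to 0.61). Hoxb6 was higher in cKO in both, at 0.89 (0.13 to 1.76) and 1.41 (0.82 to 1.96), and so was Hoxb7, at 0.92 (0.16 to 1.79) and 1.04 (0.57 to 1.48). The higher Hoxb2 and Hoxb6 levels of the whole cluster thus held in both of these groups, and the Hoxb1, Hoxb3, Hoxb4, Hoxb8 and Hoxb9 differences did not. In the remaining cluster 6 cells, high for chromosomes 1, 6 and 8, 8 genes had UMIs in both genotypes. None of their intervals lay above or below 0. Only 35 parental cells were of neither group, and only 21 cKO cells were high for chromosome 11. The smaller somite-like cluster 3 had 227 CPM in 146 cKO cells and 280 CPM in 192 parental cells, but it was shallow, with medians of 4977.5 and 4556 UMIs per cell. Its parental cells also held the neural gene Hes5 at 54.1 CPM, against 1.83 CPM in cKO, so the part of neural cells in its difference was not tested.

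**Figure D4:**
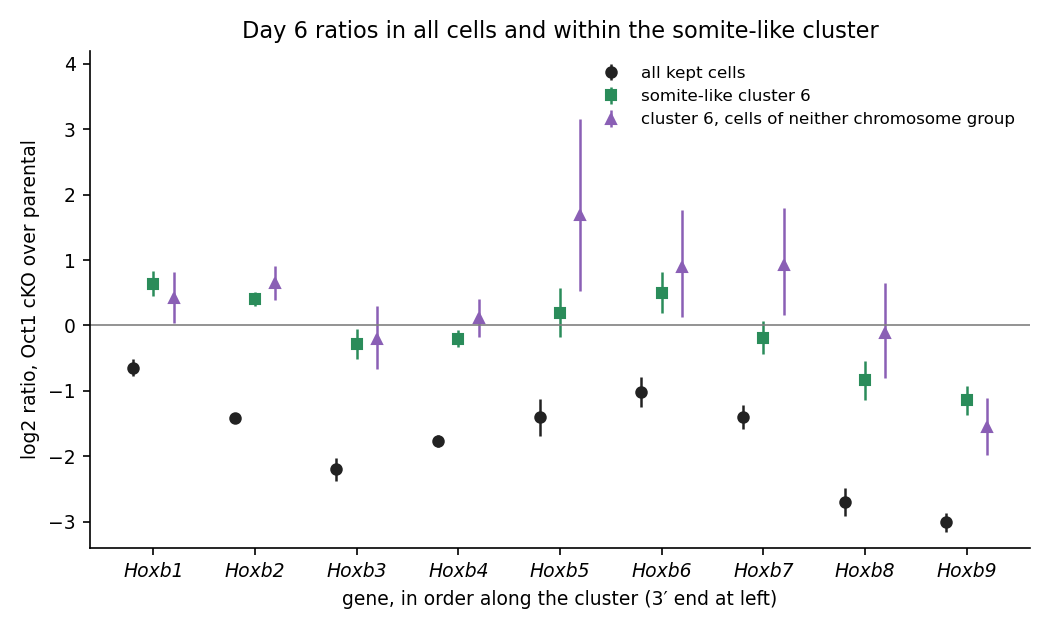
Log2 ratio of cKO over parental for Hoxb1 to Hoxb9 at day 6, in all kept cells, in somite-like cluster 6, and in the cluster 6 cells of neither chromosome group, with 95% counting intervals; genes run in chromosomal order. All ratios over all cells are below 0, while within cluster 6 Hoxb1 and Hoxb2 lie above 0 and Hoxb9 below it.

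Of the antisense transcripts inside the cluster, Hoxb5os had 15.7 CPM in cKO and 67.3 CPM in parental cells at day 6, a log2 ratio of -2.10, and Hoxb3os 12.5 and 29.4 CPM, a log2 ratio of -1.24. Outside the cluster, 9 genes within 500 kb reached 5 CPM at day 6, with a median log2 ratio of -0.09. Of these, 1 was at least 2-fold lower, Copz2, a coatomer subunit gene, at 10.8 and 25.7 CPM, and 0 were higher. On the same side Cbx1, which encodes a heterochromatin protein, had 231 CPM in cKO and 375 CPM in parental cells. Calcoco2, an autophagy receptor gene on the Hoxb13 side, was high in ESC only, with 256 CPM in cKO and 189.9 CPM in parental cells there and 2.42 and 6.44 CPM at day 3.

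The other Hox clusters were read as a comparison. At day 6, 5 of 7 HoxA genes and 4 of 4 HoxC genes at 5 CPM were at least 2-fold lower in cKO, with medians of -1.45 and -2.16, while 0 of 2 HoxD genes were, with a median of 0.36. Over all genes 6.76% were lower. Hoxa3, Hoxa4, Hoxa9, Hoxc4, Hoxc6 and Hoxc8 reached 5 CPM in the parental library only, and Hoxd8 and Hoxd9 in the cKO library only. Among the genes of paralog group 9, Hoxa9 had 3.02 CPM in cKO and 12.8 CPM in parental cells, Hoxc9 5.80 and 18.3 CPM, and Hoxd9 6.82 and 4.95 CPM. HoxB held 49.2% of all Hox UMIs in cKO and 56.1% in parental cells at day 6.

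Known regulators and partners of Hox genes were taken from lists. Of 10 caudal-region genes 8 reached 5 CPM at day 3, and 3 of these were at least 2-fold lower in cKO and 0 higher, where 0.594% of all genes were lower and 0.258% higher. The lower ones were Cdx2, at 8.84 CPM in cKO and 26.6 CPM in parental cells, Fgf8, at 17.9 and 49.98 CPM, and Cdx1, at 10.2 and 20.5 CPM. At day 6, 0 of 5 were lower and 2 higher, where 6.76% of all genes were lower and 5.63% higher. The higher ones were T, the mesoderm factor Brachyury, at 17.3 CPM in cKO and 4.68 CPM in parental cells, and the growth factor Fgf8, at 15.2 and 7.52 CPM. Cdx2 had 3.79 and 6.37 CPM at day 6. Of 12 retinoic acid genes measured of 16 at day 6, 4 were lower and 2 higher. The binding protein Crabp1 stood at 24.8 CPM in cKO and 739 CPM in parental cells, the retinoic acid-degrading enzyme Cyp26b1 at 0.952 and 7.65 CPM, and the binding protein Crabp2 at 63.5 and 384 CPM. Crabp1 was also one of the neural markers. The retinoic acid receptor gene Rarb was lower as well, at 2.23 and 9.30 CPM. Of the higher genes, the receptor gene Rarg stood at 29.4 CPM in cKO and 11.5 CPM in parental cells. Among 9 TALE cofactors, which bind DNA with Hox proteins, 1 was lower, Meis1 at 19.1 and 64.0 CPM, with Meis3 at 15.5 and 30.6 CPM and Meis2 at 112 and 218 CPM under the limit. Of 2 hindbrain genes measured, Gbx2 was lower, at 2.02 and 8.49 CPM. T reached 5 CPM at day 6 in the cKO library only, so the limit let it be called higher but not lower. Cyp26b1, Rarb and Gbx2 reached it in the parental library only, so they could be called lower but not higher. Among 17 Polycomb and Trithorax genes 2 were lower, Cbx2 at 5.24 and 12.4 CPM and the methyltransferase Ezh2 at 120.3 and 269 CPM, and 0 were higher. The shares of TALE and of Polycomb and Trithorax genes that were lower lay near that of all genes.

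The genes most like the summed HoxB level across the 6 libraries, by Pearson correlation of log2(CPM + 1) with Hox genes left out, were Tmcc1, Htt, Zfp800, Mmd and Amer1. Their r ran from 0.992 to 0.999, and 9 of 6835 genes compared exceeded 0.99 over these 6 points, which share genotype and stage. Over 15 groups of day 6 cells, each a cluster in 1 genotype with at least 50 cells, they were Igf2bp2, Gstm5, Lix1l, Peg12 and Sept6, with Igf2bp2 at 0.977 among 6164 genes. Igf2bp2, an RNA-binding protein gene, had 41.4 CPM in cKO and 86.3 CPM in parental cells at day 6.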

How the data were processed

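The authors deposited a table of UMI counts, gene by barcode, for each 10x 5′ library. Per the submitters' processing notes, the authors ran Cell Ranger on mm10, and per the file headers its version was 3.1.0. The strand rule is not given in the sources used here. The 10 genes and the lists were chosen with earlier results of these data known.

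Counts were summed over kept cells and scaled to CPM. Ratios carry exact conditional binomial 95% intervals, for counting error only; a library at 0 was set to a floor of 3 counts. With 1 library per group there is no test. Simulated counts, with changes set beyond the fold limit and counting error only, were used to check that the calls ran as written. They held no variation between libraries, so they do not show how far a call from 1 library per group can be trusted. Positions came from GENCODE for GRCm38.

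Cells of each stage were clustered with scanpy 1.11.5 (2000 variable genes, 30 components, 15 neighbours, Leiden resolution 0.8, Hox genes, Gm53 and Gm11536 left out). A cluster took a name when at least 3 markers were at least 2-fold up with at least 20 UMIs, and 1 was among its 10 leading genes, the last condition added after the clusters were seen. Scrublet marked 30 of 7096 cells (0.423%), too few for a working filter, so doublets remain in. TMM factors came from edgeR 4.0.16. Genes were named by a rule: all members, Pou2f1, genes within 500 kb, up to 3 per list, and 5 per measure of likeness; other genes named describe clusters or markers, or were chosen after their values were seen. Values of some genes that the rule would name are not reported here.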

Additional observations from a re-analysis of the deposited data

Results flagged for a closer look

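Between ESC and day 6, Hoxb9 moved in opposite directions in the 2 genotypes. Its log2 ratio of day 6 over ESC was -0.25 (-0.46 to -0.04) in cKO, with 6.75 CPM at day 6 and 8.01 CPM in ESC. In parental cells it was 2.84 (2.72 to 2.97), with 54.3 CPM at day 6 and 7.57 CPM in ESC. Each direction rests on 1 library per stage, and the difference between the genotypes was not tested. The ESC and later libraries carry different run prefixes.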

How the results depend on the processing

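No paired analysis was possible because each group holds 1 library and the labels give no replicate numbers to pair. Directions of the summed ratio of cKO over parental at day 3 and day 6, and of day 6 over day 3 in both genotypes, were the same under every alternative run. At day 6 the summed ratio was -1.64 with TMM factors, -1.65 with median-of-ratios factors, -1.62 with equal weight per cell, -1.88 in cells of neither chromosome group and -0.82 without the neural-like and neuron-like clusters, a setting added after the data were seen, as was grouping by markers. With a limit of 20 CPM, 4 genes were lower at day 6 and 0 at day 3. No HoxB gene reached 20 CPM at day 3, where Hoxb1 was highest at 11.02 CPM in parental cells, so none could be called. At day 6 only Hoxb2, Hoxb3, Hoxb4 and Hoxb9 reached it, and of these only Hoxb2 did so in cKO. Without the 2 neural clusters 4 were lower at day 6. With no filter on low values, 9 genes were lower at day 3 and 4 in ESC. Some of these calls rest on few UMIs, such as 1 in cKO and 6 in parental ESC for Hoxb3. Shares of all genes with the 20 CPM limit and with no filter are not given here. At day 3, requiring 2000 genes and at most 5% mitochondrial UMIs gave -1.77. Cells of neither chromosome group gave -0.56 with Hoxb2 at 0.032, and the cause was not tested. In those cells 1 gene was lower, Hoxb1. It alone reached 5 CPM there, in the parental cells only, so it could not have been called higher. In ESC the summed ratio was 0.19 with equal weight per cell and -0.38 in cells of neither group. Day 6 over day 3 gave 2.95 in cKO and 3.21 in parental cells with TMM factors, 2.90 and 3.21 with median-of-ratios factors, 3.40 and 3.37 with the stricter barcode filter, and 3.05 and 4.37 in cells of neither group. With TMM factors the median over all genes was -0.023 in cKO and -0.033 in parental cells, against 0.26 and 0.22 unscaled. Equal weight per cell gave 3.28 in parental cells. The cells of somite-like clusters 3 and 6, at -0.00015 together, gave, as the clusters made mostly of them and by then mostly named mesenchyme-like or somite-like, 0.094 at resolution 0.5, 0.080 at resolution 1.2, 0.069 with 4000 variable genes and -0.10 when grouped by markers; neural-like cells gave -1.01 and, by markers, -0.27.

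Shares of cells with a HoxB UMI move with depth by construction. Thinned to 3000 UMIs they were 4.26% in cKO and 4.04% in parental ESC, 2.54% and 5.64% at day 3, and 16.5% and 42.6% at day 6. Thinned to 20000 UMIs they were 19.4% and 21.3%, 12.7% and 25.4%, and 34.7% and 71.0%. Without thinning they were 48.7% and 37.8%, 27.1% and 41.4%, and 36.5% and 69.3%. Of 190 values of single genes under alternatives, 142 stayed within the main counting interval, 47 moved outside it and 1, Hoxb2 at day 3, changed sign after being called; Hoxb9 in ESC, not called, passed from 0.081 to -0.0013 in cells of neither group.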

Other observations

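When day 6 cells were grouped by marker genes instead of clusters, a step added after the data were seen, 133 cKO and 104 parental cells held at least 3 somite genes and fewer than 3 neural genes after thinning. In these cells Hoxb9 had 13.8 CPM in cKO and 42.2 CPM in parental cells, a log2 ratio of -1.61 (-1.95 to -1.28), and Hoxb2 had 141 and 105 CPM, a log2 ratio of 0.43 (0.29 to 0.56). In cells with at least 3 neural and fewer than 3 somite genes, 18 cKO and 500 parental, Hoxb9 had 42.6 and 102 CPM while Hoxb7 had 69.8 and 14.98 CPM. In cells with at least 3 epithelium genes and fewer than 3 of either other list, 841 cKO and 320 parental, the summed level was 24.4 and 54.6 CPM, a log2 ratio of -1.16 (-1.28 to -1.05), with each of Hoxb1 to Hoxb9 lower. The clusters, which hold other sets of cells, differed for Hoxb9. Its log2 ratio was 0.54 (-0.31 to 1.47) in epithelium-like cluster 1 and 1.33 (0.29 to 2.58) in unnamed clusters 2, 9 and 11 together. Hoxb4 stood at 0.11 (-0.55 to 0.82) in the unnamed clusters. The rest of Hoxb1 to Hoxb8 had lower levels in cKO in both, some within counting error.

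Outside the HoxB cluster, 5′ Hox genes were also present in ESC, where Hoxc13 had 13.1 CPM in cKO and 6.14 CPM in parental cells and Hoxc12 had 3.98 and 1.81 CPM. Within the 1092 thinned cKO and 1175 thinned parental cells of day 6, Hoxb8 was found in 20% of 50 Hoxb9-positive cKO cells and in 44.7% of 190 Hoxb9-positive parental cells; among Hoxb9-negative cells the shares were 1.34% and 8.02%.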
